A study of Mus musculus with 18 samples.

Results

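Neutrophil granule and calprotectin transcripts were measured in whole liver of 18 male mice, as 9 genes out of 35441 in the gene table. The genes are S100a8, S100a9, Ngp, Camp, Ltf, Elane, Mpo, Retnlg and Cd177, and they were chosen by symbol from results of these same livers, in which Ngp and Camp had stood out between untreated Lipa-/- and WT mice at 12 weeks. The 12-week values of untreated Lipa-/- mice are therefore given as a description: fold changes and counts of calls are printed there, but no p, and nothing is read from them. The study asked how loss of lysosomal acid lipase changed gene expression in the liver and whether gene transfer reverted it. Each of 6 groups held 3 mice: WT mice without treatment, Lipa-/- mice without treatment (KO), and Lipa-/- mice given the vector rAAV8.hAAT.LIPA (KOT), all at 12 or 34 weeks after injection, which the labels give as 3 and 8 months.

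Both KO and KOT mice lacked exon 4 of murine Lipa in all tissues and were on a C57BL/6N background. The vector carried human LIPA cDNA with an HA tag behind the human α1-antitrypsin promoter, which drives expression in hepatocytes, and was injected into the tail vein of young adults. Per the study's methods nearly all untreated Lipa-/- mice had to be killed before the last time point, so the KO mice labelled 8 months may have been collected earlier than their 34-week counterparts. All 34-week mice carried the study code 22-106, whereas the 12-week mice carried 22-132 except for KO mouse 5, which carried 23-004. Time point and study code therefore cannot be told apart.

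The libraries held 17527848 to 25833134 assigned reads, and levels are given as CPM, reads scaled to the size of the library, with TMM factors from 0.587 to 1.69. All 9 genes passed the filter of more than 100 reads summed over the 18 mice, as did 14533 genes in all. Murine Lipa was at 202 to 323 CPM in WT mice and at 16.7 to 37.0 CPM in all 12 Lipa-/- mice. Human LIPA was at 523 to 2746 CPM in the 6 treated mice, at 0 in the 6 untreated Lipa-/- mice and at most at 0.906 CPM in WT mice. At 34 weeks it was at 1316, 2746 and 523 CPM in KOT mice 9, 11 and 12, the last being the lowest treated value. At 12 weeks it was at 1577, 907 and 2631 CPM in KOT mice 10, 11 and 12. The part of the transgene level in the differences between treated mice was not tested. The hepatocyte marker Alb lay between 12510 and 64986 CPM in every library.

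A pair of mice stood apart from the others of their group in these genes. KO mouse 9 at 12 weeks was the highest of its group in 9 of 9 genes, from 8.81-fold (Retnlg) to 18.3-fold (Elane) over the mean of KO mice 5 and 8. KOT mouse 12 at 34 weeks was the highest of its group in 9 of 9 genes and lay above all 3 untreated KO mice of that time point in 9 of 9 genes. At least 4-fold over both other mice of the group were 9 of 9 genes in each of these mice, against 1.73% of the 14533 tested genes in KO mouse 9 and 2.16% in KOT mouse 12. The results that rest on these mice are given below with and without them.

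Neutrophils store antimicrobial proteins in granules that are filled in sequence during their development in the bone marrow. Primary (azurophil) granules, made first in promyelocytes, hold myeloperoxidase (Mpo) and serine proteases such as neutrophil elastase (Elane). Secondary (specific) granules, made next in myelocytes and metamyelocytes, hold lactoferrin (Ltf), the cathelicidin precursor (Camp) and the cystatin-like neutrophilic granule protein (Ngp). S100a8 and S100a9 encode the subunits of calprotectin, a calcium- and zinc-binding heterodimer that fills the cytosol of mature neutrophils and is also made by monocytes. Retnlg encodes a secreted resistin-like protein of mouse neutrophils and Cd177 a surface glycoprotein of the same cells. Transcripts of primary and secondary granule proteins are highest in immature cells, whereas calprotectin transcripts persist in mature neutrophils. In RNA of whole liver, fewer cells of a type and less RNA per cell cannot be told apart.

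The genes lie on 6 chromosomes of GRCm39. S100a8 (chromosome 3, 90567118 to 90578128, plus strand) and S100a9 (chromosome 3, 90599931 to 90603071, minus strand) were 21803 bp apart with 0 protein-coding genes between them. Camp (109676442 to 109678685, minus strand), Ngp (110248815 to 110252086, plus strand) and Ltf (110848339 to 110871835, plus strand) shared a region of chromosome 9, with 570 kb between Camp and Ngp and 596 kb between Ngp and Ltf. Elane (chromosome 10, 79722081 to 79724051, plus strand) lay 3073 bp from Prtn3, another primary granule protease. Mpo (chromosome 11, 87684407 to 87695239, plus strand) lay 2014 bp from Lpo, the lactoperoxidase gene, and Retnlg (chromosome 16, 48692547 to 48694862, plus strand) 27723 bp from its relative Retnla. Cd177 was on chromosome 7 (24443408 to 24459747, minus strand), and no gene of the 9 overlapped another protein-coding gene. Prtn3 did overlap one, Plppr3, and the part of this overlap in the Prtn3 values below was not tested.

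The sequences before their start sites were searched for the letters of factors that drive granulocyte genes. The 250 bases before each start came from the RefSeq promoter table of GRCm38.p6, matched for 9 of 9 genes, and each stretch was found exactly 1 time in GRCm39. On either strand, TTGCNNAA (a C/EBP core) was found before S100a9, Ngp, Ltf and Retnlg, 4 of 9 genes against 9.56% of 32851 promoters, and GAGGAAG (a PU.1 core) before S100a8, Elane and Mpo, 3 of 9 against 10.6%. Of the other 5 spellings searched, CCAAT was found in 4 genes (33.8% of all promoters), TTNNGNAAT, a looser C/EBP spelling that overlaps the first, in 4 (10.2%), TATAAA in 2 (12.4%), AGAGGAAG, which contains GAGGAAG, in 1 (3.67%) and TGTGGT, a RUNX core, in 1 (14.05%). These are matches of letters, not measured binding sites. The parts of these stretches that are not annotated as exon are shown for the calprotectin pair, for 2 secondary granule genes and for Elane, 5′ to 3′ on the gene's strand, with matches to TTGCNNAA or GAGGAAG in capitals. They span chr3:90576128-90576284 (S100a8, plus), chr3:90603072-90603278 (S100a9, minus), chr9:110248626-110248814 (Ngp, plus), chr9:110848110-110848338 (Ltf, plus) and chr10:79721896-79722080 (Elane, plus) of GRCm39. The RefSeq start of S100a8 lies 9260 bases inside the gene's outermost annotated start. That of Retnlg lies 424 bases inside, so its stretch, with the TTGCNNAA match, is within the annotated gene and begins in an annotated exon. The starts of Mpo and Camp lie 203 and 161 bases inside.
S100a8: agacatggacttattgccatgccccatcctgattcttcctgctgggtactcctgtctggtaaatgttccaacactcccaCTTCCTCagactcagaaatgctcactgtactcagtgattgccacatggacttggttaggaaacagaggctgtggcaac
S100a9: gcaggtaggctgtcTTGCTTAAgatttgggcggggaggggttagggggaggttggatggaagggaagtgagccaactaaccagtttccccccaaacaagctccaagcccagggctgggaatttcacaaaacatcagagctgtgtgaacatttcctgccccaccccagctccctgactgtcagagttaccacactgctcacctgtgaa
Ngp: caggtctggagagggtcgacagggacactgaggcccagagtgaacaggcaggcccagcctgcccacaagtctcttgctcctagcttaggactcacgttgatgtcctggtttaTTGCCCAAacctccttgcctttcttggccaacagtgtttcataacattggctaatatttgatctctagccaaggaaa
Ltf: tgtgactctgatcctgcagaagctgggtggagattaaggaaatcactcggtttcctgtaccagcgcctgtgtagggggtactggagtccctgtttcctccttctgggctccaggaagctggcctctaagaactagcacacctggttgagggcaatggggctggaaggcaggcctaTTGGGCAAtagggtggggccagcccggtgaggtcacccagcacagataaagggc
Elane: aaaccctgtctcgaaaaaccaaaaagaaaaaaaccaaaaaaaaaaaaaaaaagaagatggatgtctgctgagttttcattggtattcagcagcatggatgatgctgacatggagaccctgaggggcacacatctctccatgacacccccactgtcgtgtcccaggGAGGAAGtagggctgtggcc

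At 12 weeks, all 9 genes were near or at 0 in WT livers and present in every untreated Lipa-/- liver. S100a8 was at 59.9, 42.8 and 520 CPM in KO mice 5, 8 and 9, against 0.643, 0.670 and 0.419 CPM in WT mice 1, 2 and 3. S100a9 was at 60.3, 46.1 and 542 CPM in the same KO mice, against 0.643, 1.44 and 0.209 CPM. The groups did not overlap for either subunit, and the means were 360-fold and 284-fold apart (208 ± 271 against 0.577 ± 0.138 CPM for S100a8, SD, n = 3 each).

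**Figure D1:**
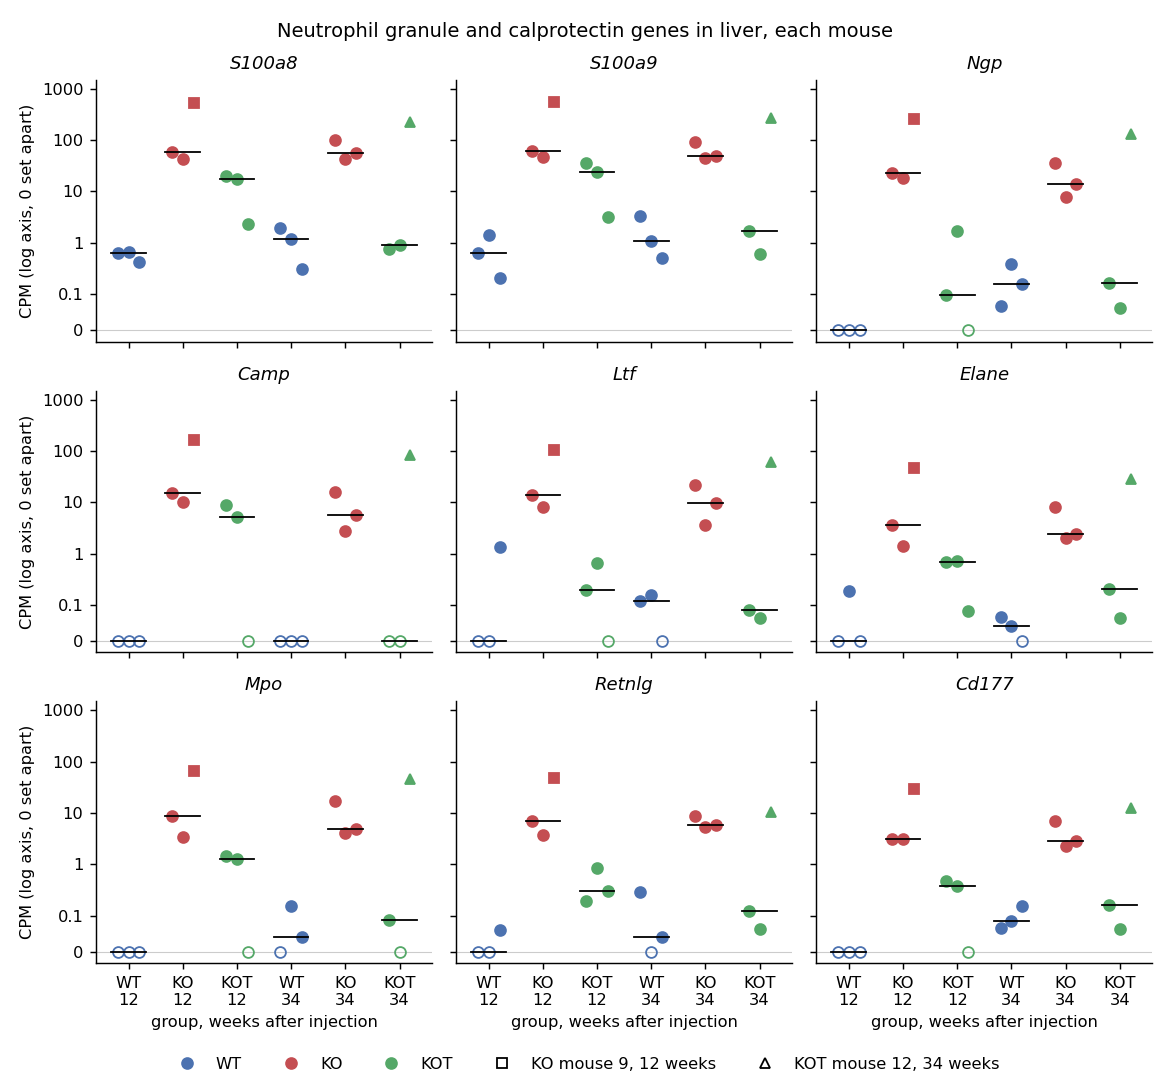
Level of each of the 9 genes in every mouse, in CPM on a log axis with 0 drawn at the foot of the axis, by group (WT, KO, KOT) and weeks after injection, with 1 point per mouse. KO mice lie above WT mice in every panel, KO mouse 9 (square) is the top point at 12 weeks, and KOT mouse 12 (triangle) lies far above the other treated mice at 34 weeks.

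The secondary granule genes followed the same order of mice at 12 weeks. Ngp was at 23.4, 17.98 and 259 CPM in KO mice 5, 8 and 9, and no read was assigned to it in the 3 WT mice. Camp was at 15.1, 10.3 and 160 CPM and likewise had no read in WT mice. Against a floor of 3 reads over the WT group, Ngp was at least 1956-fold and Camp at least 1206-fold higher in KO mice. Ltf was at 13.98, 7.92 and 103 CPM in KO mice and at 1.36 CPM in WT mouse 3 alone, a 91.7-fold difference of the means.

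Of the primary granule genes, Elane was at 3.55, 1.44 and 45.6 CPM and Mpo at 8.59, 3.38 and 67.2 CPM in KO mice 5, 8 and 9. Elane had 4 reads in the WT group, which gave a 264-fold difference, and Mpo had none, which gave at least 516-fold. Retnlg, at 6.96, 3.77 and 47.2 CPM, had 1 read in WT mice, so its ratio of 1090 carried a counting interval of 195 to 43086, which covers counting error only. Cd177 was at 3.19, 3.07 and 28.9 CPM and exceeded the WT group, which had no read, at least 229-fold. Mouse 8 was the lowest and mouse 9 the highest KO mouse in 9 of 9 genes.

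As a description, 9 of 9 genes were called higher in KO mice at 12 weeks (log2 fold change over 1 and adjusted p under 0.05), where 20.2% of all tested genes were called higher. The groups did not overlap for 9 of 9 genes, against 28.6% of tested genes. Since this comparison chose the genes, nothing is read from these counts. Without KO mouse 9, 7 of 9 genes were called, where 18.2% of tested genes were, and Ltf and Elane were those lost.

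At 34 weeks, in other mice than those that chose the genes, all 9 transcripts were again higher in untreated Lipa-/- livers than in WT livers, without overlap. S100a8 was at 99.7, 42.5 and 55.6 CPM in KO mice 4, 5 and 6, against 1.95, 1.18 and 0.311 CPM in WT mice 1, 2 and 3. S100a9 was at 93.7, 44.2 and 48.7 CPM, against 3.30, 1.10 and 0.506 CPM. The S100a8 means were 57.5-fold apart (65.9 ± 30.0 against 1.15 ± 0.818 CPM, SD, n = 3 each). The log2 fold change was 5.89 (SE 1.74) for S100a8 and 5.30 (SE 1.73) for S100a9, with adjusted p of 0.0102 and 0.0184 in edgeR's quasi-likelihood test with Benjamini-Hochberg adjustment over all tested genes.

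Secondary granule transcripts were also higher in the 34-week KO livers, but Camp did not pass the test. Ngp was at 36.5, 7.96 and 14.2 CPM in KO mice 4, 5 and 6 and at 0.0590, 0.394 and 0.156 CPM in WT mice, with a log2 fold change of 6.46 (SE 2.24, edgeR adjusted p = 0.0272). Ltf was at 22.0, 3.56 and 9.74 CPM against at most 0.158 CPM, with a log2 fold change of 6.97 (SE 2.27, edgeR adjusted p = 0.0182). Camp was at 16.1, 2.74 and 5.70 CPM and had no read in the WT group, at least 186-fold lower there, yet its edgeR adjusted p was 0.0507.

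Primary granule, secreted and surface transcripts rose with them. Elane was at 7.98, 2.05 and 2.43 CPM in KO mice 4, 5 and 6 with 2 reads in the WT group, a ratio of 149 with a counting interval of 41.0 to 1237 (edgeR adjusted p = 0.0215). Mpo was at 17.5, 4.17 and 4.81 CPM against at most 0.158 CPM, with a log2 fold change of 6.82 (SE 2.34, edgeR adjusted p = 0.0260). Retnlg was the most even of the 9 genes among these mice, at 8.58, 5.33 and 5.92 CPM, and had the smallest edgeR adjusted p, 0.00587, at a log2 fold change of 6.08 (SE 1.65). Cd177 was at 6.87, 2.24 and 2.90 CPM against 0.0590 to 0.156 CPM, with a log2 fold change of 5.23 (SE 1.72, edgeR adjusted p = 0.0212). Mouse 4 was the highest and mouse 5 the lowest KO mouse in 9 of 9 genes, and mouse 4 exceeded the mean of the other KO mice by 1.52-fold (Retnlg) to 3.89-fold (Mpo).

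In all, 8 of 9 genes were called higher in KO mice at 34 weeks, where 20.5% of the tested genes were, and 9 of 9 did not overlap, where 30.5% did not. The list was chosen with earlier results of these livers known. Ngp, Camp, Ltf, Elane, Mpo, Retnlg and Cd177 had at most 26 reads in a WT group (Ltf at 12 weeks), and Camp had none. These genes passed the filter on reads only through Lipa-/- mice. The counts and the adjusted p of single genes are therefore a description and not independent evidence. The median log2 fold change of the 9 genes was 6.46, also 6.46 with Camp set to its bound, against -0.03 over all tested genes. Leaving out WT mouse 3 lowered the count to 2, and it was 3 without WT mouse 1, WT mouse 2 or KO mouse 4 of that time point, while every log2 fold change kept its sign. Over all alternatives run, the adjusted p ranged from 0.000168 to 0.0428 for S100a8 and from 0.000365 to 0.0805 for Ngp. Markers of other cells also differed between the same mice, in both directions. Called higher in KO mice by edgeR were 7 of 9 monocyte and macrophage markers (1 lower), 4 of 4 proliferation markers and 3 of 4 tested T and NK cell markers. So were 1 of 5 platelet markers, 1 of 8 tested erythroid markers (2 lower), 1 of 3 tested progenitor markers and 1 of 2 tested eosinophil markers. Of 4 B cell markers 0 were called higher and 1 lower, and 4 of 5 hepatocyte markers were called lower. Of the 14533 tested genes, 2288 were called lower. The macrophage markers summed to 2476 to 3555 CPM in KO mice against 132 to 225 CPM in WT mice, and the hepatocyte markers to 21093 to 46795 against 55621 to 72928 CPM. Their part in the result was not tested.

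Per length, in TPM, which divides reads by transcript length, the calprotectin pair far exceeded the granule genes. Over the 6 untreated KO mice the median was 293 TPM for S100a8 and 249 TPM for S100a9, and S100a8 was above S100a9 in 6 of 6 mice. Camp (28.3 TPM), Ngp (24.1 TPM) and Retnlg (23.2 TPM) followed, and these could not be ordered firmly, since Camp was above Ngp in 3 of 6 mice and Ngp above Retnlg in 4 of 6. Ltf (13.2 TPM), Mpo (7.67 TPM), Elane (5.07 TPM) and Cd177 (1.58 TPM) came last, with Mpo above Elane in 5 of 6 mice. Calprotectin made up 81.2% to 89.1% of the summed TPM of the 9 genes in the untreated KO mice.

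Ratios between the genes were also compared within each mouse. The ratio of primary granule (Elane and Mpo) to calprotectin TPM was 0.0139 to 0.0293 in KO mice at 12 weeks and 0.0184 to 0.0346 at 34 weeks. On the log2 scale the means were -5.46 ± 0.615 and -5.42 ± 0.497 (SD, n = 3 each). The difference was 0.03, and since 3 against 3 mice cannot give a two-sided exact permutation p below 0.1, no call on it was possible. The ratio of secondary granule (Ngp, Camp and Ltf) to calprotectin TPM was 0.131 to 0.165 at 12 weeks and 0.0537 to 0.123 at 34 weeks, without overlap. The ratio of Camp to Ngp TPM was 1.11 to 1.23 in the 12-week KO mice and 0.661 to 0.830 in the 34-week KO mice, which did not overlap either, and neither was tested. The ratio of S100a9 to S100a8 was between 0.798 and 0.979 in these mice.

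**Figure D2:**
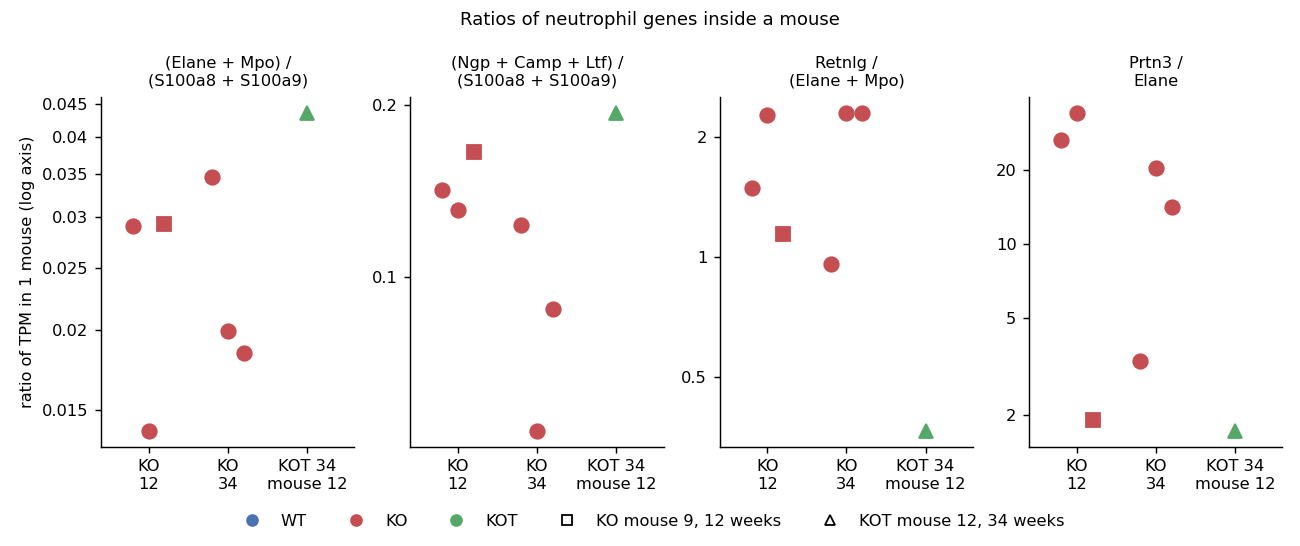
Ratios of TPM between genes inside each mouse, on log axes, for untreated KO mice at 12 and 34 weeks (3 points each) and for KOT mouse 12 at 34 weeks (triangle). The triangle lies at 0.367 for Retnlg over primary granule genes, below the KO mice at 0.958 to 2.30, and the square marks KO mouse 9.

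In treated mice at 12 weeks the calprotectin pair was still present at a low level, while most granule genes were close to 0. S100a8 was at 19.6, 17.4 and 2.38 CPM in KOT mice 10, 11 and 12 and S100a9 at 35.95, 23.8 and 3.14 CPM, all above the 3 WT mice. Against WT mice, the log2 fold change was 4.49 (SE 1.75) for S100a8 and 4.75 (SE 1.77) for S100a9, and the edgeR adjusted p was 0.0529 and 0.0449. S100a9 was thus called and S100a8 was not, although their fold changes differed by less than their errors. Over the alternatives run, the adjusted p of S100a9 ranged from 0.00731 to 0.185, and it lost the call without KOT mouse 10 or 11, without any 1 of the 3 WT mice of 12 weeks, and without WT mouse 2 or any KO mouse of 34 weeks, which share the estimate of the spread.

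The secondary granule genes parted in these treated livers. Camp was at 8.74, 5.16 and 0 CPM in KOT mice 10, 11 and 12, whereas Ngp was at 0.0972, 1.68 and 0 CPM and Ltf at 0.194, 0.652 and 0 CPM. The ratio of Camp to Ngp TPM was 171 in KOT mouse 10 and 5.87 in KOT mouse 11, against 0.661 to 1.23 in the 6 untreated KO mice. In mouse 10 that ratio rests on an Ngp level under the floor of 3 reads in that library, 0.291 CPM. Camp was at least 90.6-fold and Ngp at least 11.6-fold above the WT group, which had no read of either, and the edgeR adjusted p was 0.103 and 0.313.

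Among the other genes, Elane was at 0.680, 0.706 and 0.0767 CPM, Mpo at 1.46, 1.25 and 0 CPM, Retnlg at 0.194, 0.869 and 0.307 CPM and Cd177 at 0.486, 0.380 and 0 CPM in KOT mice 10, 11 and 12. Mpo was at least 17.6-fold and Cd177 at least 5.65-fold above WT mice, and the ratio for Retnlg was 30.9 with a counting interval of 5.00 to 1276, but none of the 4 genes passed the edgeR test (adjusted p from 0.187 for Retnlg to 0.405 for Elane). Ltf was lower than in WT mice, at 0.622 of their mean, where WT mouse 3 alone carried its reads, and the edgeR adjusted p was 0.895. KOT mouse 12 was the lowest of its group in 8 of 9 genes and had no read in 5 of them.

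Against WT mice at 12 weeks, 1 of 9 genes was called higher in treated mice, where 13.6% of tested genes were, and 3 of 9 (S100a8, S100a9 and Retnlg) did not overlap, where 27.7% did not. The median log2 fold change was 4.75, or 4.14 with the genes without WT reads at their bounds, against 0.06 over all tested genes. KOT mice 10, 11 and 12 also had the lowest TMM factors of the series, 0.587 to 0.759, whose part in the result was not tested.

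Compared with untreated KO mice at 12 weeks, all 9 genes were lower in treated mice, and since these KO mice chose the genes the values are a description. The means were 10.3-fold lower for S100a9, 13.3-fold for Camp and 15.8-fold for S100a8. They were 29.2-fold lower for Mpo, 34.6-fold for Elane, 40.6-fold for Cd177, 42.3-fold for Retnlg, 147-fold for Ltf and 168-fold for Ngp. As a description, 7 of 9 genes were called lower, where 25.3% of tested genes were, with S100a9 and Camp not called, and 9 of 9 did not overlap, where 32.8% did not. Without KO mouse 9, 2 of 9 were called, where 24.8% were, and without any 1 of the 3 treated mice 4 were called.

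At 34 weeks the treated mice split into a pair at the WT level and 1 mouse above the untreated KO mice. S100a8 was at 0.772, 0.929 and 226 CPM in KOT mice 9, 11 and 12, and S100a9 at 1.71, 0.601 and 267 CPM. Mice 9 and 11 thus lay at or under the highest WT mouse of that time point (1.95 CPM for S100a8 and 3.30 CPM for S100a9), whereas mouse 12 exceeded the highest untreated KO mouse (99.7 CPM for S100a8 and 93.7 CPM for S100a9).

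The granule genes showed the same split. Ngp was at 0.163, 0.0546 and 133 CPM, Camp at 0, 0 and 84.0 CPM and Ltf at 0.0813, 0.0546 and 61.5 CPM in KOT mice 9, 11 and 12. Elane was at 0.203, 0.0546 and 28.3 CPM, Mpo at 0.0813, 0 and 46.3 CPM, Retnlg at 0.122, 0.0546 and 10.5 CPM and Cd177 at 0.163, 0.0546 and 12.8 CPM. Mice 9 and 11 were at or under the highest WT mouse in 7 of 9 genes, the exceptions being Elane and Cd177 in mouse 9, at 0.203 and 0.163 CPM. Mouse 12 exceeded the mean of the untreated KO mice of that time point by 1.58-fold (Retnlg) to 10.3-fold (Camp), with a median of 5.22-fold.

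None of the 9 genes was called by edgeR between treated mice and either other group at 34 weeks. Against WT mice, 0 of 9 genes were called higher, where 0.131% of tested genes were, and 0 of 9 did not overlap, where 4.78% did not. The S100a8 log2 fold change was 6.10 (SE 1.75, edgeR adjusted p = 0.376), and the adjusted p of the 9 genes ran from 0.351 (Elane) to 0.538 (Camp), while 9 of 9 had an unadjusted p under 0.05 and DESeq2, which gave no adjusted p for S100a9 and Cd177, called 5 of the other 7, where it called 0.427% of tested genes. The means were 66.3-fold (S100a8), 54.9-fold (S100a9), 218-fold (Ngp), 224-fold (Ltf), 236-fold (Mpo), 31.9-fold (Retnlg) and 44.2-fold (Cd177) those of WT mice, at least 635-fold for Camp and, for Elane, 363-fold with a counting interval of 100.2 to 3006. Mouse 12 carried nearly all of these reads. Without mouse 12, 0 of 9 genes were called by edgeR, where 0.0826% of tested genes were, and 0 of 9 had an unadjusted p under 0.05, with log2 fold changes from -0.87 to 2.02.

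Against untreated KO mice at 34 weeks, with the same treated mice as in the comparison to WT mice, 0 of 9 genes were called lower in treated mice, where 18.6% of tested genes were, and 0 of 9 did not overlap, where 28.5% did not. The S100a8 log2 fold change was 0.21 (SE 1.35, edgeR adjusted p = 0.917), the adjusted p of the 9 genes ran from 0.465 (Camp) to 0.948 (Cd177), and 0 of 9 had an unadjusted p under 0.05. The treated mean was 1.15 (S100a8), 1.44 (S100a9), 2.27 (Ngp), 3.42 (Camp), 1.74 (Ltf), 2.29 (Elane), 1.75 (Mpo), 0.537 (Retnlg) and 1.08 (Cd177) times that of KO mice. DESeq2 called 0 of the 7 genes with an adjusted p, where it called 19.1% of tested genes. Limma on log2 TPM called 2 of 9, where it called 25.3%, and limma voom 1 of 9, where it called 19.8%. Without mouse 12, edgeR called 9 of 9 genes lower, where 19.4% of tested genes were, with log2 fold changes from -4.90 (Elane) to -10.53 (Camp). In that fit KOT mice 9 and 11 alone stood for the treated group. Camp had no read in either of them, so its -10.53 is a fitted value and not a measured fold. Mpo had 2 reads in mouse 9 and none in mouse 11.

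**Figure D3:**
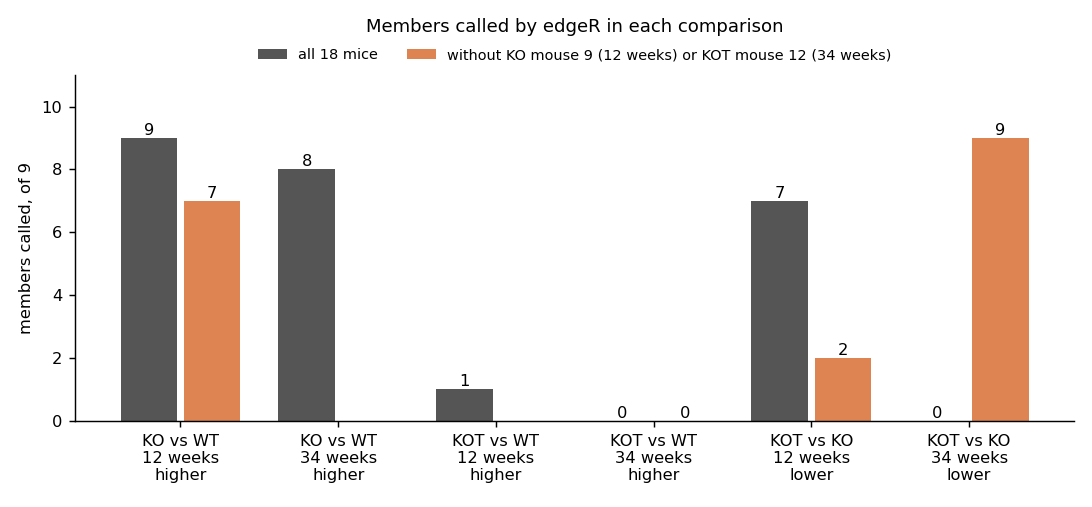
Number of the 9 genes called by edgeR in each comparison (bars from 0), in the direction named under each pair, with all 18 mice (grey) and without KO mouse 9 at 12 weeks or KOT mouse 12 at 34 weeks (orange). The count for KOT against KO at 34 weeks is 0 with mouse 12 and 9 without it.

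Whether the difference of treated from WT mice itself changed between 12 and 34 weeks was tested as an interaction. Of the 9 genes, 0 were called in either direction by edgeR, where 18.4% of tested genes were, and Ltf alone had an unadjusted p under 0.05. Ngp, Camp, Mpo and Cd177 had no read in WT mice at 12 weeks, and Camp had none at 34 weeks either. The change could thus not be estimated for Camp (SE 21836) and was loose for Retnlg (SE 8.30) and Ngp (SE 5.39). For Mpo and Cd177 the SE was 1.81 and 1.18. These do not measure the error, since KOT against WT mice at 12 weeks alone had 4.42 and 3.87. The count of 0 therefore cannot decide whether these genes changed. DESeq2, also with all mice, called 3 of 7, where it called 23.5% of tested genes. Without mouse 12, 2 of 9 were called, where 23.7% of tested genes were.

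The mix of the 9 genes in KOT mouse 12 differed from that of the untreated KO mice. Its ratio of secondary granule to calprotectin TPM was 0.194, above the 0.0537 to 0.165 of the 6 KO mice, and its ratio of primary granule to calprotectin TPM was 0.0436, above 0.0139 to 0.0346. Its ratio of Retnlg to primary granule TPM was 0.367, below 0.958 to 2.30, and that of Retnlg to calprotectin was 0.0160, below 0.0316 to 0.0458. Prtn3 over Elane was 1.73 in KOT mouse 12 and 1.91 in KO mouse 9, the lowest values among these 7 mice, with KO mouse 4 of 34 weeks next at 3.32. The other KO mice were at 14.1 and 20.2 (34 weeks) and at 26.3 and 34.2 (12 weeks). None of these ratios was tested.

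**Figure D4:**
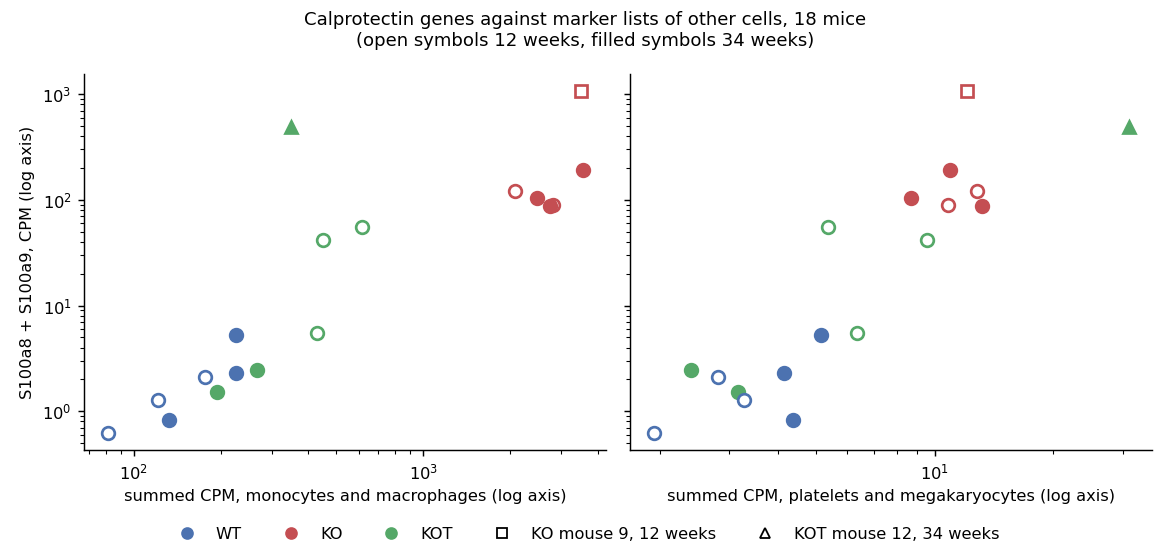
Summed CPM of S100a8 and S100a9 against the summed CPM of marker lists of other cells in the 18 mice, on log axes, with open symbols for 12 weeks and filled symbols for 34 weeks. KOT mouse 12 (triangle) has 494 CPM of calprotectin at 31.1 CPM of platelet markers and 348 CPM of macrophage markers.

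Markers of other blood cells were also higher in KOT mouse 12 than in KOT mice 9 and 11. The 5 platelet and megakaryocyte markers summed to 31.1 CPM against 2.40 to 3.17 CPM in KOT mice 9 and 11, the 4 basophil and mast cell markers to 2.92 against 0.0406 to 0.0546 CPM, the 4 proliferation markers to 23.4 against 2.24 to 4.27 CPM, and the 4 progenitor markers to 9.53 against 5.14 to 6.30 CPM, each with every marker above both other mice. The 9 erythroid markers summed to 683 against 160 to 331 CPM (7 of 9 above both), and the 5 hepatocyte markers to 47212 against 54766 to 72821 CPM (0 of 5 above both). The 9 monocyte and macrophage markers summed to 348 CPM against 193 to 266 CPM (6 of 9 above both), but Gpnmb, a gene of lipid-laden macrophages, was at 7.94 CPM, under KOT mice 9 and 11 and far under the 1343 to 2815 CPM of the untreated KO mice. B cell markers (5.37 against 4.47 to 4.92 CPM, 2 of 4 above both), T and NK cell markers (8.60 against 6.56 to 6.79 CPM, 4 of 5) and eosinophil markers (1.05 against 0.0813 to 0.219 CPM, 3 of 3 with reads) differed less or were near 0. The part of these cells in the result was not tested.

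KO mouse 9 at 12 weeks was like KOT mouse 12 in proliferation and progenitor markers, but not in platelet or hepatocyte markers. The 4 proliferation markers of KO mouse 9 summed to 91.1 CPM against 14.4 to 19.0 CPM in KO mice 5 and 8. Its 4 progenitor markers summed to 11.5 against 5.25 to 6.21 CPM, and each of these 2 lists had 4 of 4 above both. Basophil and mast cell markers were at 0.687 against 0.0355 to 0.117 CPM (3 of 4 above both). Its platelet markers were at 12.1 against 10.8 to 12.8 CPM, and its hepatocyte markers at 55569 against 36237 to 41536 CPM (2 of 5 above both). Macrophage markers summed to 3499 against 2082 to 2810 CPM (5 of 9 above both), among them Ly6c2, a marker of inflammatory monocytes, at 64.3 against 3.37 and 7.18 CPM. Clec4f, a marker of resident Kupffer cells, was at 1.33 CPM against 42.4 and 39.8 CPM. The part of these cells in the high values of mouse 9 was not tested.

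Other granule genes, taken as a list with earlier results known, were mostly higher in untreated KO mice at 34 weeks. In that comparison with WT mice, 20.5% of all tested genes were called higher. Of 6 other primary granule genes 5 were tested and 2 were called higher: Prtn3, the protease next to Elane, at 20.7, 30.6 and 25.5 CPM in KO mice against 0.156 to 1.47 CPM in WT mice (log2 fold change 4.70, SE 1.27, edgeR adjusted p = 0.00587), and Ctsg, cathepsin G, at 5.14, 1.08 and 1.80 CPM against 1 read in the WT group. Their median log2 fold change was 5.32, or 4.18 with genes of up to 3 WT reads set to the floor. Of 10 other secondary and tertiary granule genes 9 were called higher, with a median of 5.96, or 4.80 at the floor. Among them Lcn2, the iron-siderophore binding lipocalin that hepatocytes also make, was at 1211, 3175 and 1586 CPM in KO mice 4, 5 and 6 and rose by 6.23 on the log2 scale (SE 1.16, edgeR adjusted p = 0.000321), and Chil3, a chitinase-like protein, rose by 7.76 (SE 1.79, edgeR adjusted p = 0.00188). Mmp8, neutrophil collagenase, was at 8.32, 4.95 and 6.32 CPM against 1 read in the WT group, and Mmp25 at 0.757, 0.425 and 0.368 CPM against no read.

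Genes of the neutrophil surface and of mature neutrophils were higher as well, with 11 of 14 called at 34 weeks, where 20.5% of tested genes were. The median log2 fold change of the list was 3.54 (3.47 at the floor). Asprv1, a protease of mature neutrophils, was at 9.55, 2.98 and 4.89 CPM against at most 0.118 CPM (log2 fold change 6.18, SE 1.16, edgeR adjusted p = 0.000490), and Il1r2, the decoy receptor of interleukin 1, rose by 5.33 (SE 1.15, edgeR adjusted p = 0.00110). Stfa2l1, a cystatin-like gene, was at 2.11, 1.12 and 1.25 CPM against 1 read in the WT group, and it has close paralogs between which reads can be split. Ly6g, the surface antigen used to define mouse neutrophils, was low in KO mice, at 0.757, 0.502 and 0.257 CPM, had no read in WT mice and did not pass the test (edgeR adjusted p = 0.0651).

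Regulators of granulocyte development moved in both directions at 34 weeks, with 3 of 8 called higher and 2 lower. Of the 14533 tested genes, 20.5% were called higher and 2288 lower. Runx1 (log2 fold change 5.06, SE 0.48, edgeR adjusted p = 5.32e-07), Spi1, which encodes PU.1 (3.39, SE 0.47), and Cebpd (2.39, SE 0.33) rose, whereas Cebpe, the factor of secondary granule genes, fell by 1.52 on the log2 scale (SE 0.25, edgeR adjusted p = 0.000104) and Cebpa, which hepatocytes also use, fell by 1.47 (SE 0.28). Cebpe was at 9.73 to 10.0 CPM in the WT livers of that time point, in which Camp had no read. Of 6 tested neutrophil recruitment and growth factors (10 listed) 3 rose, among them the chemokine Cxcl2 (5.73, SE 0.80, edgeR adjusted p = 2.07e-05), the macrophage growth factor Csf1 (2.31, SE 0.35) and Cxcl5, at 4.60, 2.55 and 4.26 CPM against 2 reads in the WT group. The growth factor of granulocytes, Csf3, had 5 reads in the 3 KO mice together and was not tested.

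The receptors that bind calprotectin were called higher in 2 of 3 cases, Tlr4 (log2 fold change 2.83, SE 0.46, edgeR adjusted p = 8.39e-05) and Ager (3.46, SE 0.62), whereas Bsg was at -0.06 (SE 0.25). In this comparison 20.5% of the 14533 tested genes were called higher and 2288 genes lower. Of 7 tested S100 genes other than the calprotectin pair, S100a4 (5.94, SE 1.05), S100a6 (5.74, SE 0.92) and S100a11 (4.49, SE 0.43) rose and S100a10 fell by 1.06, with a median of -0.06. Inhibitors of the granule proteases parted, with 2 of 7 higher and 4 lower. Slpi, which inhibits elastase, rose by 5.05 (SE 0.78, edgeR adjusted p = 5.96e-05), and the Serpina1 genes are near-identical copies whose reads cannot be assigned with certainty. Of 10 family relatives of the other members 2 were tested and 1 was called, Meltf, a relative of lactoferrin, at 2.55, 1.16 and 2.35 CPM against no read in WT mice.

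At 34 weeks, with mouse 12 included, the lists were also compared between treated and untreated KO mice, where 18.6% of all tested genes were called lower. None of 5 other primary granule genes was called against untreated KO mice, and 3 of 10 secondary and tertiary granule genes were lower, namely Lcn2, Itgam and Lyz2, which other cell types also express. Lcn2 fell by 5.02 on the log2 scale (SE 1.09, edgeR adjusted p = 0.00148) and was at 162 CPM in KOT mouse 12, under the 1106 to 3175 CPM of the untreated KO mice of both time points. Of the surface and maturity genes 6 of 14 were lower, with Stfa2l1, Asprv1 and Il1r2 at 0.156, 0.700 and 0.389 CPM in mouse 12, under all 3 KO mice of that time point, whereas Ly6g was at 2.88 CPM, above them. Ly6g, Csf3, Bsg, Gpnmb, Ly6c2 and Clec4f were singled out after their values were seen. Receptors of calprotectin (2 of 3 lower), S100 genes (3 of 7), recruitment factors (3 of 6) and macrophage markers (5 of 9) also held genes called lower. Without mouse 12, where 19.4% of tested genes were called lower, 3 of 5 primary granule genes, 8 of 10 secondary and tertiary granule genes, 10 of 14 surface and maturity genes and 7 of 9 macrophage markers were called lower, and the counts for receptors (2), S100 genes (3) and recruitment factors (3) were equal to those with it. That fit of the lists was chosen after seeing the data, and no difference between lists or from the 9 members was tested.

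Between treated and WT mice at 12 weeks, 13.6% of all tested genes were called higher. Called higher were 1 of 5 primary granule genes (Ctsc, log2 fold change 1.42, SE 0.29), 1 of 10 secondary and tertiary granule genes (Lyz2, lysozyme of myeloid cells, 4.43, SE 0.73), and 2 of 14 surface and maturity genes (Csf3r, 1.905, and Fcgr4, 1.78). Of the recruitment factors 2 of 6 were called, and Cxcl1 (4.02, SE 1.16, edgeR adjusted p = 0.0155) was at 457 CPM in KOT mouse 10 against 22.0 and 11.1 CPM in KOT mice 11 and 12. Of the other S100 genes 5 of 7 were higher, led by S100a4 (3.42, SE 1.19) and S100a6 (2.87, SE 0.86), and of the macrophage markers 5 of 9. At 34 weeks, 0 genes of the primary granule, secondary and tertiary granule, and surface and maturity lists were called higher by edgeR in treated than in WT mice, where 0.131% of all tested genes were.

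Over the 18 mice, the genes whose pattern was most like the mean of the 9 genes were mostly other neutrophil and monocyte genes. Likeness was measured as the root mean square distance of centred log2 CPM from the members' mean, among the 12590 tested genes averaging 1 CPM or more, whose median distance was 3.26. The nearest were Ctsg (0.760), Chil3 (0.878), Mmp8 (1.06), Pglyrp1 (1.08), Prtn3 (1.11), F13a1 (1.31), Slfn4 (1.35) and Ccr1 (1.35), against 0.428 (Mpo) to 1.10 (Ngp) for the 9 genes themselves. Between pairs of the 9 genes, Pearson's r of log2(CPM + 0.5) was 0.875 to 0.992 over the 18 mice (36 pairs, median 0.957) and 0.903 to 0.997 over the 6 untreated KO mice. The mice fall into groups and share libraries across genes, so these are descriptions. F13a1 and Ccr1 departed from the members in KOT mouse 12, at 5.29 and 1.95 CPM against 18.5 to 27.3 CPM and 9.35 to 11.8 CPM in the 34-week KO mice, where the 9 genes were above them. Chil3 (37.8 CPM) and Mmp8 (5.52 CPM) in KOT mouse 12 lay within these KO mice, at 20.2 to 58.6 and 4.95 to 8.32 CPM. Ctsg, Pglyrp1, Prtn3 and Slfn4 lay above all 3 KO mice, as the 9 genes did.

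**Figure D5:**
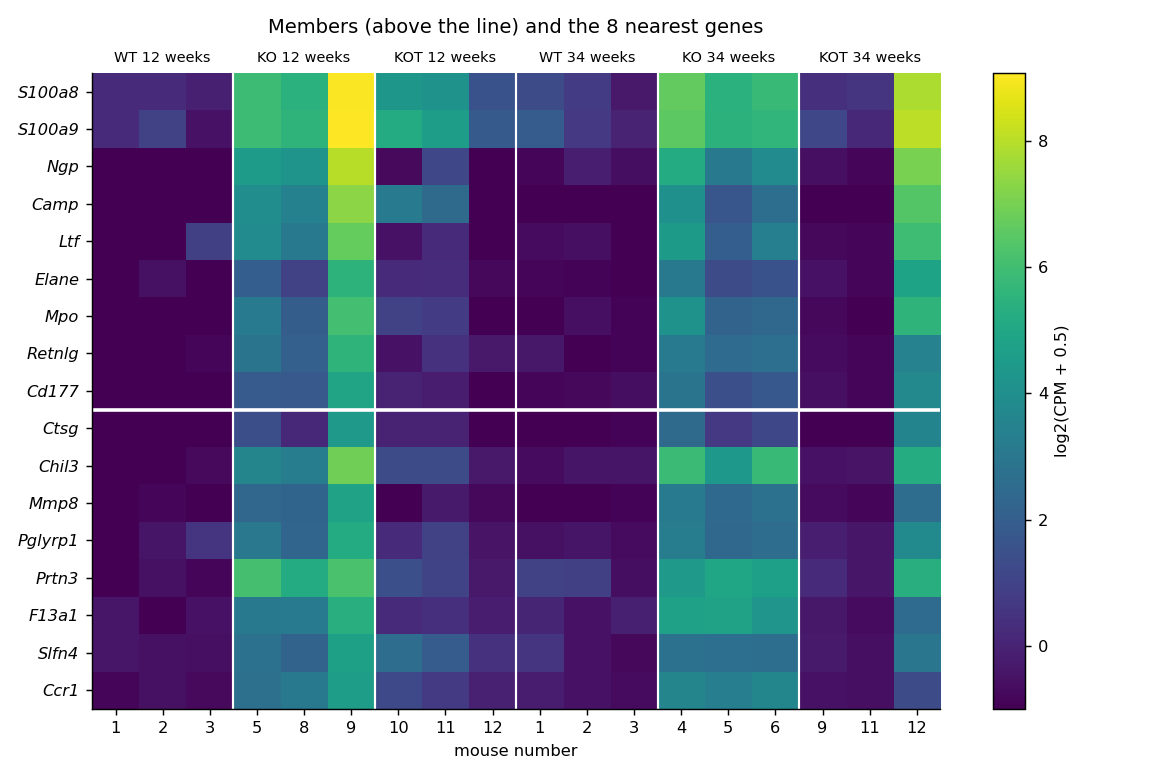
Level of the 9 genes (above the white line) and of the 8 nearest genes in each of the 18 mice, as log2(CPM + 0.5), with mouse numbers on the horizontal axis grouped by WT, KO and KOT at each time point. KOT mouse 12 at 34 weeks is bright in the 9 genes and darker in F13a1 and Ccr1.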

How the data were processed

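RNA from frozen liver was sequenced as paired polyA libraries. The authors quantified the reads with Salmon against mouse transcripts (GRCm39) plus the human LIPA transgene and deposited estimated counts, which sum over transcripts to genes, length-scaled abundances (TPM) and mean transcript lengths. The deposited length values, in bases and outside the other units, served as offsets for DESeq2 alone. A deposited table of the authors' DESeq2 fold changes and p-values was not used. The submitters' processing notes name DESeq2 1.40.1 and R 4.3.0.

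Estimated counts (19.4% not whole) were rounded and genes with more than 100 reads over 18 mice were tested. Group means of all 6 groups were fitted together in edgeR 4.0.16 (quasi-likelihood, TMM) under R 4.3.3, and a gene was called at a log2 fold change over 1 and a Benjamini-Hochberg adjusted p under 0.05. Fitted folds are not printed where the reference group had up to 3 reads, the floor used for bounds. Each SE is the absolute log2 fold change divided by the square root of the test's F statistic, not a fitted standard error. Depth was 17527848 to 25833134 reads per library. Intervals are exact and cover counting error only. Groups came from the labels, and no pair of libraries within a group agreed within sampling noise. Alternatives used DESeq2 1.42.0 and limma 3.58.1. Counts were simulated from the WT means of both time points (13559 genes), with changes set in the 12-week KO group in genes over 1 CPM. There edgeR recovered 88% of 4-fold changes and, by adjusted p alone, 23% of 2-fold changes. Members such as Camp and Mpo were near 0 in WT mice, so these shares do not hold for them. All 9 members were named in every comparison between 2 groups, beside up to 4 called genes of each list with the largest change, the 8 genes nearest the members, and Lipa and human LIPA. The members and lists were chosen with earlier results of these data known.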

Additional observations from a re-analysis of the deposited data

How the results depend on the processing

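At 12 weeks, 7 to 9 of 9 genes were called higher in KO than in WT mice without any 1 mouse, and every other alternative run gave 6 to 9, but this comparison chose the genes. With 3 mice per group and up to 3 reads in some WT groups, the other counts moved. DESeq2 gave no adjusted p for S100a9 and Cd177, so its counts are of 7 genes. A fit of only the groups compared cannot give the change of the treated effect over time.

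For KO against WT mice at 34 weeks (8 called), the count was 1 at an adjusted p under 0.01 and 2 to 9 without 1 mouse. For KOT against WT mice at 12 weeks (1 called), it was 5 in DESeq2, 0 with total counts, 2 without the filter on low counts, 5 with only the 2 groups compared, 0 at an adjusted p under 0.01, 0 in limma on log2(TPM + 0.5) and 0 to 4 without 1 mouse. For KOT against WT mice at 34 weeks (0 called), it was 5 in DESeq2 and 0 without any 1 mouse. For KOT against KO mice at 12 weeks (7 called lower), it was 1 at an adjusted p under 0.01 and 2 to 9 without 1 mouse. For KOT against KO mice at 34 weeks (0 called lower), it was 2 in limma on log2(TPM + 0.5) and 0 to 9 without 1 mouse. For the change of the treated effect (0 called), it was 3 in DESeq2 and 0 to 2 without 1 mouse. Apart from the fits that leave out a mouse, the cause of these shifts was not tested.

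Mice of different time points share some numbers, but the labels tie no number to an animal or batch, and the deviations of same-numbered mice correlated at -0.253 to 0.460, so the numbers do not pair the mice. With the number as a replicate block in limma voom, 4 genes were called for KO against WT mice at 34 weeks, 0 for KOT against WT mice at 12 weeks and 4 for KOT against KO mice at 12 weeks. In limma voom with no replicate block, chosen after seeing the data, the counts were 4, 0 and 4, and 1 for KOT against KO mice at 34 weeks.

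The log2 fold changes of KOT against KO mice at 34 weeks had no firm sign. With total counts they were -0.35 (S100a8), -0.0269 (S100a9) and -0.45 (Cd177). In limma on log2(TPM + 0.5) they were -3.96 (S100a8), -3.62 (S100a9), -2.79 (Ngp), -2.51 (Camp), -2.32 (Ltf), -1.55 (Elane), -2.15 (Mpo) and -1.20 (Cd177). With the replicate block they were -3.26 (S100a8), -2.92 (S100a9), -3.26 (Ngp), -3.83 (Camp), -3.19 (Ltf), -1.79 (Elane), -3.46 (Mpo) and -2.38 (Cd177). Without 1 mouse they ranged from -6.30 to 0.79 (S100a8), -5.74 to 1.11 (S100a9), -7.37 to 2.00 (Ngp), -10.53 to 2.73 (Camp, without a read in KOT mice 9 and 11), -7.32 to 1.63 (Ltf), -4.90 to 2.09 (Elane), -7.45 to 1.79 (Mpo) and -5.09 to 0.76 (Cd177), the lowest values being those without KOT mouse 12. Against WT mice at 34 weeks they ranged from -0.39 to 6.68 (S100a8), -0.41 to 6.80 (S100a9), -0.87 to 8.51 (Ngp), -0.32 to 8.59 (Ltf) and -0.59 to 9.07 (Mpo), the negative ones again without KOT mouse 12, and Camp then had no read in either group. The Ltf change of KOT against WT mice at 12 weeks was 1.14 with the replicate block and -2.30 to 5.87 without 1 mouse. The log2 difference of the primary granule to calprotectin ratio between KO mice of 34 and 12 weeks was -0.25 with Prtn3 and Ctsg added and -0.32 to 0.22 without 1 mouse.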
